A study of Mus musculus with 18 samples.

Results

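The protocadherins are cell-surface cadherins, and the set described here is every gene whose symbol begins with Pcdh. The symbols were matched from the gene identifiers of the stage and regional tables and from the RefSeq transcripts of the mutant table. In the stage and regional tables, 70 of 27179 genes were protocadherins: 14 Pcdha, 22 Pcdhb, 22 Pcdhg and 12 non-clustered genes. The mutant table had transcripts of 69 of them among its 35729 transcripts, and Pcdhgb8 had none there.

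The samples were pools of fluorescence-sorted mouse spinal motor neurons (MNs), 18 in all, sequenced as RNA. The p8 MNs (postnatal day 8) came from Chat-IRES-Cre::Ai9 animals, in which tdTomato marks cells with Chat-driven Cre, and were sorted for tdTomato, with 3 samples from each of 3 regions, brachial, thoracic and lumbar. The e12 MNs (labelled E12.5) were brachial cells sorted for GFP from the Mnx1-GFP transgene. Of the e12 samples, 3 were labelled Hoxc8 MNΔ (Hoxc8 fl/fl crossed to Olig2-Cre, which acts in MN progenitors, and to Mnx1-GFP) and 6 were labelled wild type and are called control here. For its Hoxc8 RNA sequencing, the study gives the control genotype as Hoxc8 fl/fl. Which samples labelled wild type, if any, carried that genotype is not given. The study's methods give different brachial segments for the stage analysis and for the Hoxc8 analysis, the second reaching further caudally, and which of the 6 controls came from which dissection is not given. Per the same methods, several cords were pooled for each e12 Mnx1-GFP and each p8 sample. The stages therefore differed in reporter as well as in age, so that age and sort cannot be told apart.

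Clustered protocadherins lie in 3 neighbouring arrays on a single chromosome. Each Pcdha and Pcdhg variable exon has its own promoter and is spliced to constant exons shared by its array, whereas Pcdhb genes have no shared constant exon. A neuron expresses a small random choice of these isoforms, whose matching partners on other membranes give the cell an identity used in dendrite and axon self-avoidance. The C-type members (Pcdhac1, Pcdhac2, Pcdhgc3, Pcdhgc4 and Pcdhgc5) are chosen less randomly, and Pcdhgc4 is known for the survival of spinal interneurons. Non-clustered protocadherins are separate genes, and the delta genes among them have roles in axon growth, cell sorting and synapse formation.

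On genome build GRCm38.p6, the Pcdha array spanned chromosome 18 from 36930285 to 37188897, the Pcdhb array from 37264998 to 37521419 and the Pcdhg array from 37661775 to 37841873. In the GENCODE models of that build, 45.1% to 71.5% of the exon bases of a Pcdha gene lay in no other Pcdh gene (13 of the 14, since the exons of Pcdha10 were not analysed here), against 33.2% to 72.2% for Pcdhg genes and 90.3% to 100% for Pcdhb genes. The 12 non-clustered genes shared none. Reads in shared exons may be counted for another isoform or for none, so the Pcdha and Pcdhg counts may be partial.

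Each deposited table held a base mean per gene (its mean normalized count over the libraries compared), the log2 fold change and its standard error (SE), and the Wald statistic with its p-value. Values of single samples were not among them. Normalized counts are reads scaled by a size factor, which stands for the depth of each library. The level of a gene in a group was solved from its base mean and fold change, so it is a fitted value with no SD. Genes with a single read gave each library's size factor. In the stage table the 3 p8 brachial libraries had size factors of 1.45, 0.963 and 0.0838, against 1.32 to 1.71 for the 6 e12 libraries. In the smallest p8 library 1 read was worth 11.9 normalized counts. Each p8 region held such a shallow library, with size factors of 0.160 (brachial), 0.228 (thoracic) and 0.509 (lumbar) in the regional tables, where the other libraries had 1.702 to 2.74. The 6 libraries of the mutant table lay between 0.910 and 1.17. Results without the shallow libraries could not be computed from the tables.

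**Figure D1:**
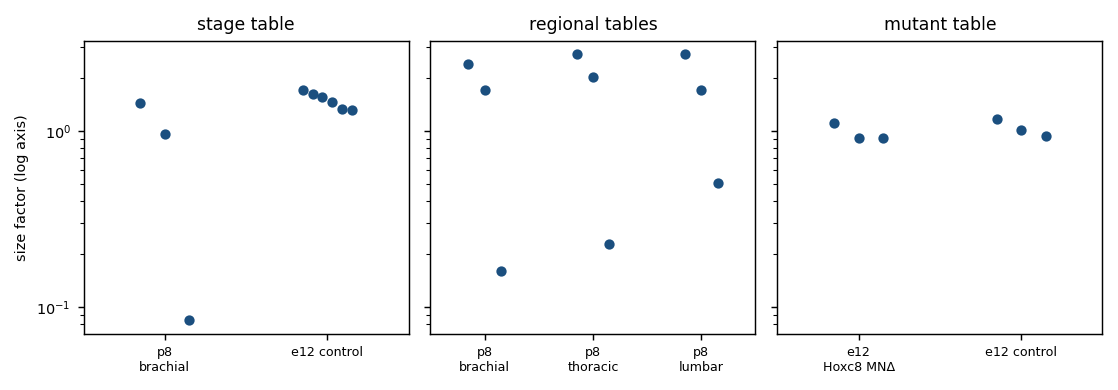
Size factor of each library (log axis), recovered from genes with a single read, for the stage, regional and mutant tables. 1 library of each p8 region lies below the others, down to 0.0838 for p8 brachial in the stage table, while the 6 libraries of the mutant table lie between 0.910 and 1.17.

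The first comparison asked how protocadherin expression in brachial MNs at p8 differed from that at e12. Most clustered genes were lower at p8 (37 of 47 with a p-value), and the median difference was largest in the Pcdha array. Of 56 protocadherins with a p-value, 40 were lower at p8 and 1, Pcdh9, was higher (DESeq2's Wald test as deposited, Benjamini-Hochberg adjusted p below 0.05 over 18787 genes). Over all genes tested, 47.8% passed, 24.8% lower at p8 and 23% higher. The log2 fold change (e12 over p8), positive where a gene was lower at p8, had a median of 2.60 over the 70 protocadherins and of -0.10 over all 21211 genes with reads. It was positive for 67 of 70 protocadherins, against 10197 of 21211 genes.

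Marker genes of other cells moved with the stage. All 15 oligodendrocyte markers were higher at p8, and their summed level was 44.1% of all normalized counts at p8 and 0.0103% at e12. Among the other lists, 8 of 8 oligodendrocyte precursor, 9 of 9 microglial, 9 of 10 endothelial and 6 of 8 astrocyte markers with a p-value were higher at p8. The astrocyte list was mixed, since 4 of its 10 genes had a fold change towards lower values at p8, none of them called. For MN markers, 7 of 10 were lower at p8 and none was higher, with a median e12 over p8 log2 fold change of 4.47 and a summed level of 1226 normalized counts at p8 and 9443 at e12. Markers of inhibitory interneurons (6 of 6), excitatory interneurons (6 of 7) and sensory neurons (6 of 7) were also lower at p8. The part of these differences in the protocadherin results was not tested, and in these bulk samples fewer cells of a type and less RNA per cell cannot be told apart.

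The scale also mattered. Summed over genes, the fitted levels were 2.35 times as large at p8 as at e12, so a level taken as a share of all normalized counts shifts every e12 over p8 log2 fold change by 1.23. On that scale, which was added after the data were seen, 50 protocadherins were lower at p8 and none was higher, against 44.3% lower and 11.7% higher over all genes tested. The 10 genes lower at p8 on that scale alone were Pcdhb2, Pcdhb3, Pcdhga3, Pcdhga12, Pcdhgc3, Pcdhgc5, Pcdh11x, Pcdh12, Pcdh17 and Pcdh18. Of the marker lists above, 7 of 10 endothelial markers were higher at p8 on that scale. Of 8 astrocyte markers, 6 were higher and 2, Slc1a3 and Sox9, were lower, and 9 of 10 MN markers were lower. Direction is given below by size factors, and named where the share scale turns it or ends a call.

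**Figure D2:**
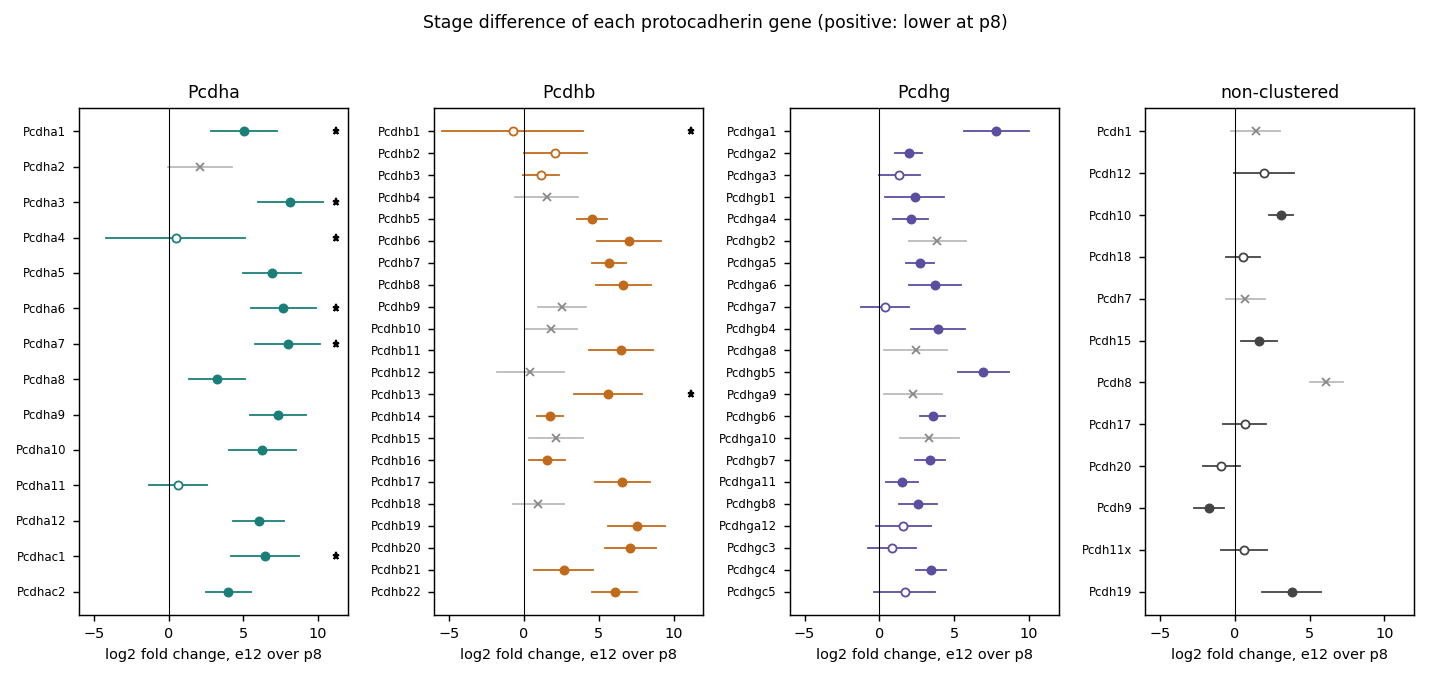
Log2 fold change of e12 over p8 (x axis) with its 95% interval for each of 70 protocadherins, in chromosome order within the 3 arrays. Filled circles passed adjusted p below 0.05, open circles did not, grey crosses had no p-value, and stars mark genes without a read in the p8 brachial libraries. In each of the 3 array panels at least 1 gene lies beyond 7, and Pcdh9 at -1.73 is the only filled circle left of 0.

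In the Pcdha array, 11 of 13 genes with a p-value were lower at p8 and none was higher. The median e12 over p8 log2 fold change was 6.15 over its 14 genes, and 6.03 with genes that had no p8 brachial read set at their bound and Pcdha4 left out. The summed level was 108 normalized counts at p8 and 1247 at e12. For Pcdha1, Pcdha3, Pcdha4, Pcdha6, Pcdha7 and Pcdhac1, none of the 3 p8 brachial libraries held a read. A count of 0 over these libraries allows a level of up to 1.20 normalized counts. At that level 3 reads would be awaited over the group (counting error only).

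Pcdha3 had at most 1.20 normalized counts at p8 and 146.7 at e12, and was at least 122-fold lower at p8. This bound and those below allow only for counting error at p8, not for spread between libraries or error at e12. Pcdha7 was at least 108-fold lower, with 129.2 normalized counts at e12, and Pcdha6 at least 85.5-fold lower, with 102.8. The bounds were lower for the rarer Pcdhac1 (at least 37.2-fold, 44.8 normalized counts at e12) and Pcdha1 (at least 12.8-fold, 15.4 at e12). These 5 genes passed the test, with adjusted p between 1.43e-12 and 3.44e-05. Pcdha4 was near the limit of detection at both stages: its reads were 0 in all p8 libraries and 4, 1 and 1 in 3 of the 6 e12 libraries.

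Pcdha5, Pcdha9 and Pcdha10 also had fitted p8 levels below the 1.20 normalized counts that a count of 0 allows. Their e12 levels were 104.9, 134.7 and 37.9 normalized counts, and their log2 fold changes of e12 over p8 were 6.93 (SE 0.990), 7.32 (SE 0.959) and 6.28 (SE 1.14). Pcdha9 had the smallest p of the array (adjusted p = 2.55e-13). Pcdha12 had 1.502 normalized counts at p8 and 97.9 at e12.

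Some Pcdha genes were not called. Pcdha11 had 62.6 normalized counts at p8 and 98.7 at e12, an e12 over p8 log2 fold change of 0.66 (95% interval -1.28 to 2.60) that did not pass the test (adjusted p = 0.653). Pcdha2 had 23.8 normalized counts at p8 and 102.3 at e12, but no p-value. Pcdhac2, a C-type isoform known for spacing serotonergic axons, had 13.7 normalized counts at p8 and 219.2 at e12, 15.97-fold lower at p8 (95% interval 2.48 to 5.52 for the log2 fold change, adjusted p = 1.30e-06). Its e12 level was the highest of the array, also when divided by the length of exon shared with no other Pcdh gene (72.4 normalized counts per kilobase, the highest of 13 Pcdha genes).

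In the Pcdhb array, 13 of 16 genes with a p-value were lower at p8 and none was higher. The median e12 over p8 log2 fold change was 2.59 over 22 genes and 5.66 over the 16 with a p-value. Over genes with a p-value it was 6.28 for Pcdha and 2.45 for Pcdhg. The summed level of the Pcdhb array was 319 normalized counts at p8 and 2243 at e12. Its members ranged widely. Pcdhb19 had 0.860 normalized counts at p8, which is below the level of 3 reads, and 160.8 at e12. Pcdhb20 had 1.30 at p8 and 177.6 at e12, and Pcdhb17, the Pcdhb gene with the highest e12 level, had 3.58 at p8 and 339 at e12.

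Pcdhb7 had the smallest p-value of all protocadherins, with 3.94 normalized counts at p8 and 204.7 at e12 (e12 over p8 log2 fold change of 5.70, SE 0.587, adjusted p = 6.15e-21). Pcdhb5 had 5.99 normalized counts at p8 and 142.8 at e12 (4.58, SE 0.510, adjusted p = 4.96e-18). Pcdhb22 had 2.05 at p8 and 137.1 at e12. Pcdhb13 had no p8 brachial read and 23.7 normalized counts at e12, at least 19.7-fold lower at p8.

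Other Pcdhb genes had higher p8 levels and smaller differences. Pcdhb16 had 54.8 at p8 and 161.2 at e12, an e12 over p8 log2 fold change of 1.56 (SE 0.609, adjusted p = 0.0243). Pcdhb3 had 49.2 at p8 and 107.1 at e12 and did not pass the test (adjusted p = 0.125). Pcdhb18, with 53.2 at p8 and 103.5 at e12, was 1 of 6 Pcdhb genes with reads and no p-value. Pcdhb1 was close to absent, with 0 reads at p8 and 1 read in a single e12 library. Its fitted e12 over p8 log2 fold change of -0.77 turned on the share scale (0.47), and neither sign can be read from 1 read.

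In the Pcdhg array, 13 of 18 genes with a p-value were lower at p8 and none was higher. The median e12 over p8 log2 fold change was 2.49 over 22 genes, and the summed level was 2545 normalized counts at p8 and 7689 at e12. By subfamily, 6 of 6 Pcdhgb genes, 6 of 9 Pcdhga genes and 1 of 3 Pcdhgc genes with a p-value were lower at p8. Pcdhgb6 had 42.8 normalized counts at p8 and 501.6 at e12 (e12 over p8 log2 fold change of 3.55, SE 0.416, adjusted p = 2.21e-16). Pcdhgb5 had 1.19 at p8, below the 1.20 that a count of 0 allows, and 146.8 at e12 (adjusted p = 1.45e-14). Pcdhga1 had the largest fitted difference of the Pcdhga genes, with 0.514 at p8, also below that level, and 115.3 at e12.

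Pcdhga11 had 200.5 normalized counts at p8 and 566.8 at e12 (e12 over p8 log2 fold change of 1.499, SE 0.535, adjusted p = 0.0125), and Pcdhga4 had 106.9 at p8 and 454.3 at e12. Pcdhga7 had 257.6 at p8 and 329 at e12, and its interval of -1.26 to 1.97 on the log2 scale included 0 (adjusted p = 0.804). Pcdhga3, with 144 at p8 and 361.1 at e12, did not pass the test either (adjusted p = 0.107).

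Of the C-type Pcdhg genes, Pcdhgc4 passed the test. Pcdhgc3 held the largest share of the array, with 1373 normalized counts at p8 and 2438 at e12, and its e12 over p8 log2 fold change of 0.83 (SE 0.826) did not pass the test (adjusted p = 0.457). On the share scale Pcdhgc3 was lower at p8 (adjusted p = 0.024). Pcdhgc4 had 45.2 normalized counts at p8 and 489.8 at e12 (3.44, SE 0.504, adjusted p = 8.00e-11). Pcdhgc5 had 19.5 at p8 and 63 at e12 (1.69, SE 1.04, adjusted p = 0.180). On the share scale it was lower at p8 (adjusted p = 0.0101). Over the 5 C-type genes of both arrays, 3 were lower at p8 by size factors and all 5 on the share scale. The difference between C-type and other isoforms was not tested.

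**Figure D3:**
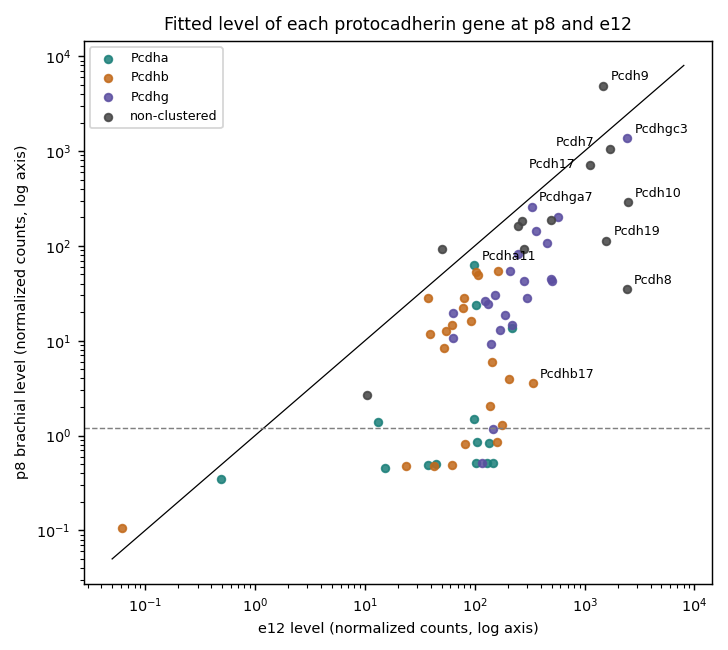
Fitted p8 brachial level against fitted e12 level (normalized counts, both axes log) for 70 protocadherins, coloured by array. The solid line marks equal levels and the dashed line the 1.20 normalized counts that 3 reads at p8 are worth. Pcdh9, with 4902 at p8 and 1481 at e12, lies above the solid line with Pcdh20 and Pcdhb1, and 17 genes lie below the dashed line. Pcdhb1 had no read at p8 and is placed above the solid line by the fit alone.

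By size factors, 4 of 9 non-clustered genes with a p-value passed the test (44.4%), near the 47.8% of all genes tested. Of these, 3 (Pcdh10, Pcdh15 and Pcdh19) were lower at p8 and Pcdh9 was higher, while 5 did not pass. On the share scale 7 of the 9 were lower and none was higher, against 44.3% and 11.7% of all genes. The summed level of the 12 non-clustered genes was 7824 normalized counts at p8 and 12132 at e12, and their median e12 over p8 log2 fold change was 1.04. Their level per kilobase of exon can be compared among the 12 non-clustered genes, which share no exon bases. At p8 it was highest for Pcdh9 (722.8 normalized counts per kilobase), ahead of Pcdh7 (98.3). At e12 it was highest for Pcdh8 (532.7), with Pcdh9 at 218.4.

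Promoter windows of RefSeq (250 bases before to 50 after a transcript start, GRCm38.p6) were held for 9 of the 12 non-clustered genes. Those of Pcdh9, the gene that was higher at p8, and of Pcdh10 and Pcdh19, the lower genes with the highest e12 levels, are shown 5′ to 3′ on the gene's strand. Capitals mark CCAAT and GGGCGG boxes on either strand. The Pcdh9 window is chr14:93890620-93890919 (minus strand), that of Pcdh10 is chr3:45378148-45378447 (plus strand) and that of Pcdh19 is chrX:133688944-133689243 (minus strand).
Pcdh9: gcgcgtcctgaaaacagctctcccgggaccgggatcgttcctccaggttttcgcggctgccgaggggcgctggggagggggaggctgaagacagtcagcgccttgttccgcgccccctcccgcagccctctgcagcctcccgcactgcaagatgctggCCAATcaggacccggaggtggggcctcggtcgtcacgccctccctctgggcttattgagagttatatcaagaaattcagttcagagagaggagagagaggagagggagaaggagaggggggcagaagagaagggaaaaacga
Pcdh10: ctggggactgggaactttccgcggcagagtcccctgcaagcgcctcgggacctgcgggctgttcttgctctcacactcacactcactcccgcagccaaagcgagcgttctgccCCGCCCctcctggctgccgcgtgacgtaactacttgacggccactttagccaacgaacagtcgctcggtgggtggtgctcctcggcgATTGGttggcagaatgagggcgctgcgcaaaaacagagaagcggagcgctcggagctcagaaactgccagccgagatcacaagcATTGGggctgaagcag
Pcdh19: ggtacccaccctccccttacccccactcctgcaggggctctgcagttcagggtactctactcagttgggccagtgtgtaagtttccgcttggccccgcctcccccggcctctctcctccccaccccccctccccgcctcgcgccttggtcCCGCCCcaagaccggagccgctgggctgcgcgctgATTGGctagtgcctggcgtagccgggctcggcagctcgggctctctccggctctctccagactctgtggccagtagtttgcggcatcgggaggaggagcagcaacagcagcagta

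The Pcdh9 window held 1 CCAAT box and no GGGCGG box. The Pcdh10 window held 2 CCAAT boxes and 1 GGGCGG box, and the Pcdh19 window 1 of each. None of the 3 held TATAAA or the homeodomain core TAATTA. Over 32851 windows of this length, 37.4% held CCAAT, 35.7% GGGCGG, 13.6% TATAAA and 5.29% TAATTA on either strand. The windows held 19 (Pcdh9), 24 (Pcdh10) and 18 (Pcdh19) CpG dinucleotides, against a median of 7 over all windows. A second Pcdh9 window began 10 bases away and held 18.

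Pcdh9, a delta-1 gene on chromosome 14 (93013700 to 93892834), had 4902 normalized counts at p8 and 1481 at e12. It was 3.31-fold higher at p8 (e12 over p8 log2 fold change of -1.73, SE 0.519, 95% interval -2.74 to -0.71, adjusted p = 0.00253). On the share scale its e12 over p8 log2 fold change was -0.49 and the call was lost (adjusted p = 0.458). The other delta-1 genes gave no call. Pcdh7, which binds protein phosphatase 1, had 1043 normalized counts at p8 and 1701 at e12, and Pcdh1 had 188.1 at p8 and 490.7 at e12; neither had a p-value. Pcdh11x had 162.5 at p8 and 246.6 at e12 (adjusted p = 0.596), and passed on the share scale (adjusted p = 0.0368).

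Of the delta-2 genes, Pcdh10, which recruits the WAVE actin regulators in growing axons, had 288.5 normalized counts at p8 and 2479 at e12 (chromosome 3, 45378398 to 45434579). Its e12 over p8 log2 fold change was 3.10 (SE 0.409, adjusted p = 3.54e-13). Pcdh19, an X-linked gene mutated in an epilepsy of heterozygous females, had 113.6 at p8 and 1576 at e12 (chromosome X, 133582860 to 133689044). Its log2 fold change was 3.80 (SE 1.001, adjusted p = 0.000498). Pcdh8, whose rat form arcadlin is induced by neural activity, had the largest non-clustered fold, with 35.1 at p8 and 2417 at e12 (6.11, SE 0.562), but was left without a p-value in the deposited table.

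Pcdh17 had 719.7 normalized counts at p8 and 1128 at e12 (e12 over p8 log2 fold change of 0.65, SE 0.736, adjusted p = 0.529). Pcdh18 had 182.1 at p8 and 268.3 at e12 (0.56, SE 0.573, adjusted p = 0.473). On the share scale both were lower at p8, with adjusted p of 0.0207 and 0.00400. Pcdh15, a tip-link component of hair cells, had 92.6 at p8 and 282.8 at e12 (1.61, SE 0.607, adjusted p = 0.0187). Pcdh20 had 93.6 at p8 and 50.1 at e12 (-0.90, SE 0.638, adjusted p = 0.258), a sign that turned on the share scale (0.33). Pcdh12, a gene of vascular endothelium, had 2.66 at p8 and 10.4 at e12 (adjusted p = 0.106), and was lower at p8 on the share scale (adjusted p = 0.00420).

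Other genes of the pathway were read from lists of known partners. Over all genes tested, 24.8% were lower at p8 and 23% higher by size factors. On the share scale 44.3% were lower and 11.7% higher. Of the genes of promoter choice and chromatin looping, such as CTCF, cohesin and the DNA methyltransferases, 7 of 13 with a p-value were lower at p8 and none was higher. Wiz had 527.2 normalized counts at p8 and 3975 at e12 (e12 over p8 log2 fold change of 2.91, SE 0.415). Dnmt3a had 1946 at p8 and 4910 at e12 (1.34, SE 0.285), and the cohesin subunit Rad21 had 1647 at p8 and 3365 at e12 (1.03, SE 0.257). On the share scale 11 of 13 were lower.

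Of the cytoplasmic partners and WAVE complex genes, 5 of 10 were higher at p8 and 1, Wasf3, was lower. Fyn, a Src-family kinase, had 15685 normalized counts at p8 and 3291 at e12, the WAVE subunit Brk1 had 7142 at p8 and 1343 at e12, and Cyfip1 had 2458 at p8 and 543.6 at e12. Cyfip2, with 13290 at p8 and 7602 at e12, was higher by size factors (e12 over p8 log2 fold change of -0.81), but its sign turned on the share scale (0.43). There 4 genes of the list were higher and 4 were lower. Of 8 genes that cleave the ectodomain or tail, Psen2, Psenen and Aph1a were higher at p8, and Aph1a was lower on the share scale. By size factors 37.5% of these 8 were called in either direction, less than the 47.8% of all genes.

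Of the large atypical cadherins (Fat, Dachsous and Celsr genes), all 6 with a p-value were lower at p8, on the share scale too. Celsr2, a planar polarity gene, had 122 normalized counts at p8 and 8833 at e12, and Dchs1 had 124.2 at p8 and 8341 at e12. Fat4 had 2.504 at p8 and 3370 at e12, and Fat1 had 570.2 at p8 and 2481 at e12. Of the classical cadherins and catenins, Ctnnd1 (p120 catenin) was lower at p8 and Ctnna1 and Jup were higher, among 7 with a p-value. That is 42.9% called, less than the 47.8% of all genes. Both higher calls were lost on the share scale and the sign of Jup turned (0.25).

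The next comparison set each p8 region against the other regions. Of 63 protocadherins with a p-value, 1 was lower in brachial MNs and none was higher, where 0.261% of 18368 genes passed, 0.0817% lower and 0.18% higher (adjusted p below 0.05). In thoracic MNs 0 of 58 and in lumbar MNs 0 of 57 passed, where 0.011% of all genes passed in thoracic MNs and 0.0219% in lumbar MNs (0.00547% higher and 0.0164% lower there). At an unadjusted p below 0.05, 5 of 63 protocadherins passed in the brachial, 1 of 58 in the thoracic and 0 of 57 in the lumbar comparison, where 6.54%, 1.45% and 2.88% of all genes passed, so the brachial and thoracic shares were close to the background. The 3 comparisons use the same 9 libraries and are not independent.

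The brachial gene was Pcdhgb5. It had 1.96 normalized counts in brachial MNs, against 28.1 in thoracic and 47.1 in lumbar MNs, and the log2 fold change of brachial over the other regions was -4.41 (SE 1.12, 95% interval -6.61 to -2.21, adjusted p = 0.0370). These brachial libraries also gave its p8 value in the stage comparison. Next in order were Pcdhb22, with 5.24 in brachial, 31.8 in thoracic and 106.6 in lumbar MNs (-3.74, adjusted p = 0.146), and Pcdhga1, with 1.23, 12.2 and 21.2 in the same order (-3.92, adjusted p = 0.152).

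The log2 fold change of brachial over the other regions was negative for 55 of 68 protocadherins with reads, against 10271 of 19935 genes. Fitted levels of the regions come from separate fits, so their order is less sure. Pcdha3, without a brachial or lumbar read, was fitted at 1.21 and 1.14 normalized counts there. The median log2 fold change of brachial over the other regions was -0.88 over these 68, and -0.01 over all 19935 genes with reads. By array it was -0.98 for Pcdha, -1.19 for Pcdhb, -0.93 for Pcdhg and -0.68 for the non-clustered genes. For thoracic MNs the median was 0.29 over the protocadherins and -0.12 over all genes, and for lumbar MNs -0.02 and -0.11. No marker gene of oligodendrocytes, MNs or other cell types passed the test in a regional comparison. At most 0.261% of all genes did, so like cell make-up is not shown. In lumbar MNs all 10 microglial markers had a negative log2 fold change (median -1.14) and all 15 oligodendrocyte markers a positive one (median 0.23). The median of 9 MN markers with reads was -0.17 in brachial, 0.57 in thoracic and -0.86 in lumbar MNs. The part of these differences in the protocadherin values was not tested. The summed level of all protocadherins was 6031 normalized counts in brachial, 7647 in thoracic and 7192 in lumbar MNs.

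**Figure D4:**
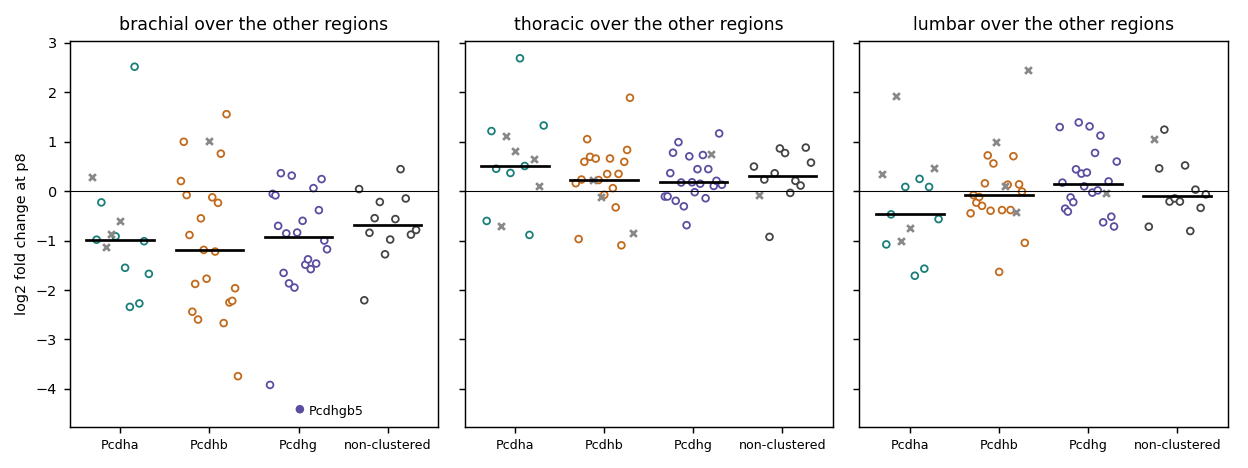
Log2 fold change of each p8 region over the other regions (y axis) for 68 protocadherins by array, with the median as a bar. Filled circles passed adjusted p below 0.05, open circles did not and grey crosses had no p-value. Pcdhgb5 at -4.41 in the brachial panel is the only filled circle, and the brachial medians lie between -1.19 and -0.68.

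A few low genes could be split into whole reads per library. Their p8 reads came from few libraries. Pcdha3 had 22 and 20 reads in the 2 deeper thoracic libraries and 0 reads in the third thoracic library and in all brachial and lumbar libraries. Pcdha6 had 34 reads, all in the deepest thoracic library. Pcdha7 had 23 reads in that library, 16 in the deepest lumbar library and none elsewhere.

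Pcdhac1 likewise had 22 reads in the deepest thoracic and 32 in the deepest lumbar library. Pcdha8 had 37 reads in the deepest thoracic library and 3 each in the deepest brachial and lumbar libraries. Pcdha4 had 3 reads and Pcdhb13 had 2, all in the deepest thoracic library, and Pcdha1 and Pcdhb1 had 0 reads in all 9. The shallow library of each region held 0 reads of these 9 genes, which the limit on base mean favours. None of the split genes passed a regional test, and Pcdha3 had a thoracic log2 fold change of 1.21 (SE 0.853, adjusted p = 1.0).

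The smallest thoracic p-value was that of Pcdha9, which had 9.63 normalized counts in thoracic MNs, against 1.84 in brachial and 1.67 in lumbar MNs. Its thoracic log2 fold change of 2.68 (SE 0.978) did not pass over all genes (adjusted p = 1.0). Pcdha11 had 28.8 in brachial, 8.28 in thoracic and 5.61 in lumbar MNs (brachial log2 fold change 2.51, adjusted p = 0.777).

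Among the protocadherins with the highest p8 levels, no regional difference passed the test. Pcdh9 had 2677 normalized counts in brachial, 3022 in thoracic and 2911 in lumbar MNs, and the 95% interval of its brachial log2 fold change, -1.17 to 0.87, leaves room for changes in either direction. Pcdhgc3 had 747.2, 736.1 and 520.4 in the same order, Pcdh7 591.4, 769.5 and 593.9, and Pcdh17 414.3, 537.7 and 684.6. Pcdh10 had 161 in brachial, 273.5 in thoracic and 300.9 in lumbar MNs, with a brachial log2 fold change of -0.84 (SE 0.461, adjusted p = 0.824).

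The last comparison asked whether protocadherins changed in Hoxc8 MNΔ MNs at e12, with 3 libraries labelled Hoxc8 MNΔ and 3 control libraries in the fit. Hoxc8 itself had a base mean of 19301 and a log2 fold change of control over mutant of 0.10 (SE 0.0807, Wald statistic 1.26), a sign towards lower values in Hoxc8 MNΔ MNs that did not pass p below 0.05. Which exons the deletion removes was not given in the sources used here, so this value checks no label. All log2 fold changes in this table lay within 0.42 of 0 and the largest SE was 0.0835, while in the stage table they reached 16.6, so sizes are not comparable with the other tables and the Wald statistic and p-value carry the comparison.

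Of 64 protocadherins with reads, 2 passed p below 0.05, the threshold the study used, where 0.871% of 19634 transcripts passed, 0.453% lower and 0.418% higher in Hoxc8 MNΔ MNs. These p-values rest on the normal approximation of the Wald statistic, and no test on samples could be run from the table. None passed after adjustment over all transcripts, where 7 transcripts did (0.0357%). Pcdhga11 was lower in Hoxc8 MNΔ MNs (base mean 775, log2 fold change of control over mutant of 0.19, SE 0.0806, Wald statistic 2.38, adjusted p = 1.0). Pcdhga5 was higher (base mean 471.4, -0.16, SE 0.0801, Wald statistic -2.01, adjusted p = 1.0). Both are Pcdhg isoforms, and both were lower at p8 in the stage comparison, as were 13 of 18 Pcdhg genes with a p-value. The stage and mutant comparisons may share e12 control samples.

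The other 62 did not pass. Of all 64, 28 had a positive sign (lower values in Hoxc8 MNΔ MNs) and 36 a negative sign, with a median log2 fold change of control over mutant of -0.00478 over the 64 and -0.000152 over all transcripts. At the same threshold, 1 of 9 MN markers with reads (Mnx1), 1 of 5 endothelial markers (Kdr) and 2 of 8 oligodendrocyte precursor markers (Cspg4 and Olig2) were lower in Hoxc8 MNΔ MNs. None of these lists had a higher one, and their part in the protocadherin values was not tested. Hoxc8 MNΔ embryos carried Olig2-Cre, so for Olig2 an effect of the Cre allele and a cell type difference cannot be told apart. The nearest protocadherins to the threshold were Pcdhgb6 (Wald statistic 1.67), Pcdhga12 (1.67), Pcdh17 (-1.57) and Pcdha2 (1.55). Pcdhgc3 (base mean 3850) had a Wald statistic of 0.95 and Pcdhgc4 (base mean 782.2) of -0.02. For genes with several transcripts the one with the highest base mean stood for the gene, at 259.5 for Pcdh10, 75.1 for Pcdh8 and 6.06 for Pcdh19, whose gene-level e12 values in the stage table were 2479, 2417 and 1576.

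**Figure D5:**
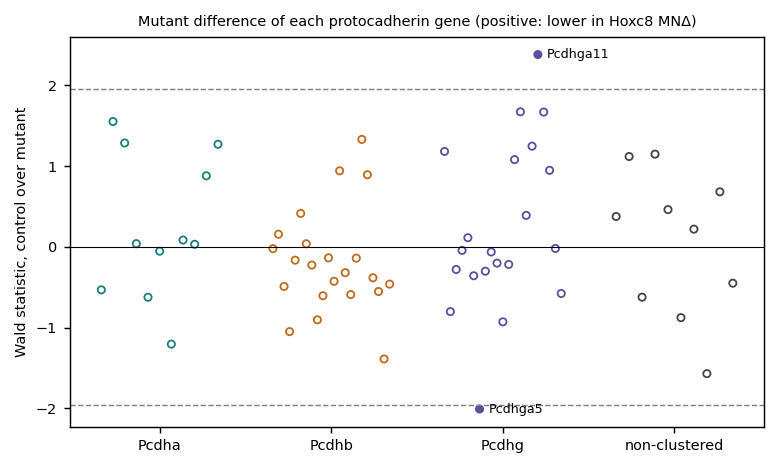
Wald statistic of control over mutant (y axis, positive where a gene was lower in Hoxc8 MNΔ) for 64 protocadherins by array. Dashed lines mark p of 0.05 and filled circles passed it: Pcdhga11 (Wald statistic 2.38) above and Pcdhga5 (-2.01) below.

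The transcript table listed 5 protocadherins at 0, namely Pcdha4, Pcdha6, Pcdha7, Pcdh9 and Pcdh11x. Pcdh9 (5 transcripts) and Pcdh11x (4 transcripts) had 1481 and 246.6 normalized counts at e12 in the stage table, which counted genes. Pcdha6 and Pcdha7 have a single transcript listed and had 102.8 and 129.2 normalized counts at e12 there. Among symbols with an e12 level of at least 100, 16.1% of those with 2 or more transcripts and 0.306% of those with 1 transcript were listed at 0 in the mutant table. Nothing can be said of these 5 genes in Hoxc8 MNΔ MNs from this table.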

How the data were processed

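FACS-sorted MN pools were sequenced by the authors as 50-nucleotide single-end reads, aligned to GRCm38 (mm10) with HISAT, counted with featureCounts and compared with DESeq2 (versions and annotation not given in the sources used here). The authors deposited 5 result tables and no counts per sample. For each gene or transcript these hold the base mean, a signal of size-factor-normalized reads, the deposited log2 fold change, its standard error, the Wald statistic (a score) and the deposited p-value, raw and adjusted. These columns are the authors' own comparisons, used here because the tables hold nothing else, and no other test could be run. The study's methods give 3 e12 replicates, the labels list 6 controls, and single-read genes showed 9 libraries (6 e12 and 3 p8) behind the stage table, 9 behind each regional table and 6 (3 and 3) behind the mutant table. Which labelled samples are the 3 controls of the mutant table is not given. Nothing says whether replicates share litters, so p-values measure the spread between these samples only.

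Symbols were matched from RefSeq for 93% of gene identifiers and 99.2% of transcripts; in the mutant table the transcript with the highest base mean stood for its symbol. P-values were re-adjusted over all features with a p (scipy 1.17.1 and pandas 2.3.3 under Python 3.11.15, with numpy 2.4.6; matplotlib 3.10.9 for figures). Calls used adjusted p below 0.05, or p below 0.05 for the mutant as in the study. Levels were solved with weights of 6 e12 and 3 p8 samples, or 3 and 6 for a region and the others. Genes with reads but no p (11.4% of those in the stage table, and 14 of the 70 protocadherins) were called neither way. Whether a single library drove the fitted levels and folds of these genes could not be checked. The deposited fold changes are drawn toward 0, most at low base means and in the mutant table, so they understate size. Size factors came from base means shared by at least 8 genes with a single read, and base means up to 2.5 were split into whole reads at a tolerance of 1.5e-09, set after the residuals were seen (largest 5.34e-10). At the first, looser tolerance Pcdha6, Pcdha8 and Pcdhac1 had 2, 3 and 4 possible splits. Recovered libraries were placed on the sides of a fit, not tied to labelled samples. The adjustment, the levels and the read recovery were tested on simulated data. Named were all non-clustered and C-type genes, those called in a regional or the mutant table, the 4 genes of each array with the highest base mean and the 3 with the smallest p in the stage table; others were named after their values were seen. One listed gene is counted with its list but not reported here. Members and lists were chosen with earlier results of these data known. Alternatives were the deposited adjustment, base mean filters, re-centring, other thresholds, weights and scaling.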

Additional observations from a re-analysis of the deposited data

How the results depend on the processing

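No paired analysis was possible because the tables hold no value per sample, and leaving out a replicate could not be computed for the same reason. The 40 protocadherins lower at p8 stayed 40 with the deposited adjustment or re-centred fold changes, were 39 and 30 with base means of at least 10 and 50 (fewer genes tested), 35 with a fold over 4 and 50 on the share scale. The 1 gene higher at p8, Pcdh9, became 0 with a fold over 4, since its fold is smaller, and 0 on the share scale. The 1 gene lower in brachial MNs, Pcdhgb5, became 0 with a base mean of at least 50, which leaves it out. The 1 gene lower and 1 gene higher in Hoxc8 MNΔ each became 0 with adjusted p, as recomputed or as deposited. Every transcript of a symbol in place of the highest gave 1 lower and 1 higher.

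The log2 ratio of summed levels, e12 over p8, moved on the share scale, chosen after seeing the data, to 4.76 (main 3.53) for Pcdha, 4.05 (2.81) for Pcdhb, 2.83 (1.595) for Pcdhg, 1.87 (0.63) for the non-clustered genes and 2.34 (1.11) for all. With weights of 3 and 3 samples it was 0.96 for the non-clustered genes and 1.38 for all. The log2 ratio of brachial over the mean of thoracic and lumbar sums was -0.30 for all protocadherins and -0.31 by least squares. None of these results changed sign. The p8 values rest on 3 libraries per region, 1 of them shallow, so p8 levels under about 1.20 normalized counts could not be told from 0.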
